A study of Caenorhabditis elegans with 64 samples.

Results

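Small RNAs of adults that lack *simr-1* were compared with those of wild-type adults at 20°C. The 4 libraries were chosen by their labels alone, as the generation 0 libraries of the generation series, out of 64 libraries in the series. The 2 *simr-1* libraries came from strain USC863, which carries the deletion allele *simr-1*(cmp36), and the 2 wild-type libraries from N2. The animals were synchronised day 1 adults of both strains, and the labels give no further allele or treatment for either. The *simr-1* deletion was made by genome editing with a rescuing *unc-119* cassette in *unc-119*(ed3) animals. Mutants were outcrossed before sequencing, and the labels do not say whether USC863 still carries the *unc-119* allele or the cassette. Whole worms were pooled for each library, and RNA of 18 to 30 nt was cut from a gel and treated with a polyphosphatase, so that small RNAs with a 5′ triphosphate could be cloned. The labels do not say whether libraries of the same genotype came from separate cultures, so p-values measure the spread between these libraries, which may be technical.

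In *C. elegans*, most small interfering RNAs in the germline are 22G-RNAs, which RNA-dependent RNA polymerases copy from a target mRNA. Worm-specific Argonautes (WAGOs) bind the class made at the Mutator foci and silence the target, while the Argonaute CSR-1 binds 22G-RNAs against expressed germline genes. Piwi-interacting RNAs bound by PRG-1 mark many targets for amplification at the Mutator foci, and SIMR-1 is a protein with an extended Tudor domain. A small RNA count at a gene is therefore not a measure of its transcript level. The counting used no strand, so small RNAs against a gene and short pieces of its own RNA were counted together.

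The libraries held 9748253 and 9099711 counts on genes in *simr-1*, and 4313158 and 3832524 in wild-type, so the mutant libraries were more than 2-fold deeper. Levels are given as RPM, reads per 1000000 reads mapped to the genome. At the deleted gene itself, *simr-1* had 35.2 and 34.1 RPM in *simr-1* animals, against 288 and 282 RPM in wild-type animals. In the matched mRNA libraries its transcript had 7.31, 6.59 and 6.54 counts per 1000000 (CPM) in *simr-1*, against 209, 164 and 166 CPM in wild-type. Both readouts were low in the libraries labelled mutant, and the groups did not overlap. The extent of the deletion was not examined, and fewer small RNAs are to be had from a gene of which part is missing. Germline, muscle and intestine mRNAs were present in both genotypes. The 25 oocyte and embryo genes summed to between 18289 and 19525 CPM in *simr-1*, against between 17906 and 20823 CPM in wild-type, and the 8 body wall muscle genes to between 1375 and 1555 CPM in *simr-1*, against between 1376 and 1616 CPM in wild-type. The 7 intestine markers measured summed to 1733, 2153 and 1763 CPM in *simr-1*, against 2627, 2443 and 2331 CPM in wild-type, and did not overlap, although none of the 7 was called.

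Small RNAs fell at 856 genes (5.64% of the 15164 genes tested) and rose at 246 genes (1.62%) in *simr-1*. Calls were made with edgeR's quasi-likelihood test (adjusted p up to 0.05), and also required a 2-fold change and a genotype mean of 10 RPM or more in *simr-1* or in wild-type. The median gene hardly moved, with a log2 fold change of -0.01 over all tested genes and 0.05 over the 6965 genes at 10 RPM or more. The 856 depleted genes had a median log2 fold change of -1.92. Of these, 397 fell at least 4-fold, 131 at least 8-fold and 7 at least 32-fold, and 14 had less than 1 RPM left in *simr-1*. Together they held 22217 and 22320 RPM in *simr-1*, against 68825 and 68009 RPM in wild-type. The 246 enriched genes had a median log2 fold change of 1.59, with 87 up at least 4-fold and 45 at least 8-fold, and held 42033 and 39849 RPM in *simr-1*, against 9186 and 9059 RPM in wild-type. The small RNAs gained at the smaller group were thus fewer than those lost at the larger one. Both *simr-1* libraries lay outside the range of both wild-type libraries at 856 of the 856 depleted and 233 of the 246 enriched genes. The calls were made on these same libraries, so this separation largely follows from them and is no added support. Replicates lay close together, with a median absolute log2 ratio between them of 0.06 in *simr-1* and 0.09 in wild-type at genes of 10 RPM or more. In whole animals, fewer cells of a type and less small RNA per cell cannot be told apart. With all libraries thinned to the depth of the smallest, 856 genes fell and 214 rose.

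**Figure D1:**
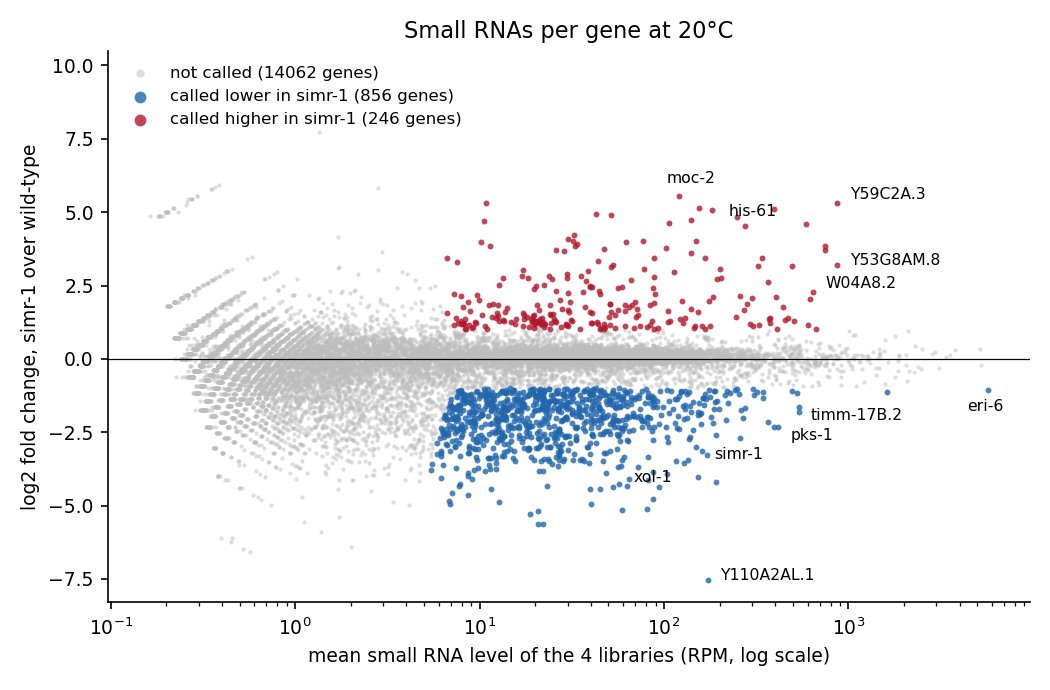
Each point is 1 of 15164 tested genes. The x axis is the mean small RNA level of the 4 libraries (RPM, log scale) and the y axis the log2 fold change of *simr-1* over wild-type, with the 246 genes called higher and the 856 called lower in colour. Most genes sit at 0, and the falls reach further (to -7.54 at Y110A2AL.1) than the rises (to 5.56 at *moc-2*).

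The deepest falls left almost no small RNAs. The gene with the largest fall was Y110A2AL.1 (II, 2875101 to 2876618), which encodes an Smr domain protein. It had 1.85 and 2.04 RPM in *simr-1*, against 341 and 346 RPM in wild-type (log2 fold change -7.54 ± 0.07, SE; edgeR adjusted p = 1.39e-18). No other gene fell as far. *pugs-4* (IV, 1707296 to 1708691; C6 domain) had 0.64 and 1.06 RPM in *simr-1*, against 39 and 41.9 RPM in wild-type. *exc-9* (IV, 7939812 to 7941064), which is needed for the shape of the excretory canal, had 0.78 and 1.06 RPM in *simr-1*, against 45 and 42.0 RPM in wild-type. At these genes the *simr-1* level was close to the limit of what the libraries could count. The peroxisome gene *prx-11* (I, 12971120 to 12972347) kept 3.63 and 3.1 RPM in *simr-1*, against 120 and 109 RPM in wild-type, a log2 fold change of -5.16 ± 0.09 (SE). The nudix hydrolase gene *ndx-2* (V, 2662964 to 2665003) kept 4.27 and 5.38 RPM in *simr-1*, against 158 and 156 RPM in wild-type. The others among the 10 largest falls had log2 fold changes between -5.28 and -4.87. They were the neuropeptide receptor gene *frpr-15*, the transthyretin-related E02H9.9, the F-box gene F37D6.4, the pseudogene Y73B3A.7 and H39E20.1, which is annotated as a transposase. None of the 10 overlapped the exons of another gene. Their edgeR adjusted p lay between 1.39e-18 and 2.94e-10, and they lie on 6 chromosomes.

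At the genes with the most small RNAs in wild-type, the falls were partial. *eri-6* (I, 4457383 to 4469461), part of a helicase gene that is joined to its neighbour by trans-splicing, had the highest level of all depleted genes. It kept 3733 and 3892 RPM in *simr-1*, against 7484 and 7682 RPM in wild-type (log2 fold change -1.08 ± 0.04, SE). Its exons overlap those of *sosi-1*, and the counting used no strand, so their reads cannot be told apart. The pseudogene F32A11.5 had 1042 and 1050 RPM in *simr-1*, against 2208 and 2158 RPM in wild-type. *timm-17B.2* (IV, 8396493 to 8397950), a copy of a subunit of the mitochondrial inner membrane translocase, had 254 and 246 RPM in *simr-1*, against 833 and 811 RPM in wild-type. All of these kept a high level in *simr-1*, the lowest being 246 RPM. The X-linked pseudogene F22H10.5 and ZK892.6 fell by 1.64 and 1.15 on the log2 scale. *pks-1* (X, 5413810 to 5441958), a polyketide synthase gene whose exons overlap several others, fell by 2.32 and kept 145 and 146 RPM in *simr-1*, against 682 and 693 RPM in wild-type. Over all genes, the share called lower was 16.4% at a wild-type level of 10 to 25 RPM, 11.5% at 25 to 100 RPM, 12% at 100 to 400 RPM and 6.23% above 400 RPM.

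**Figure D2:**
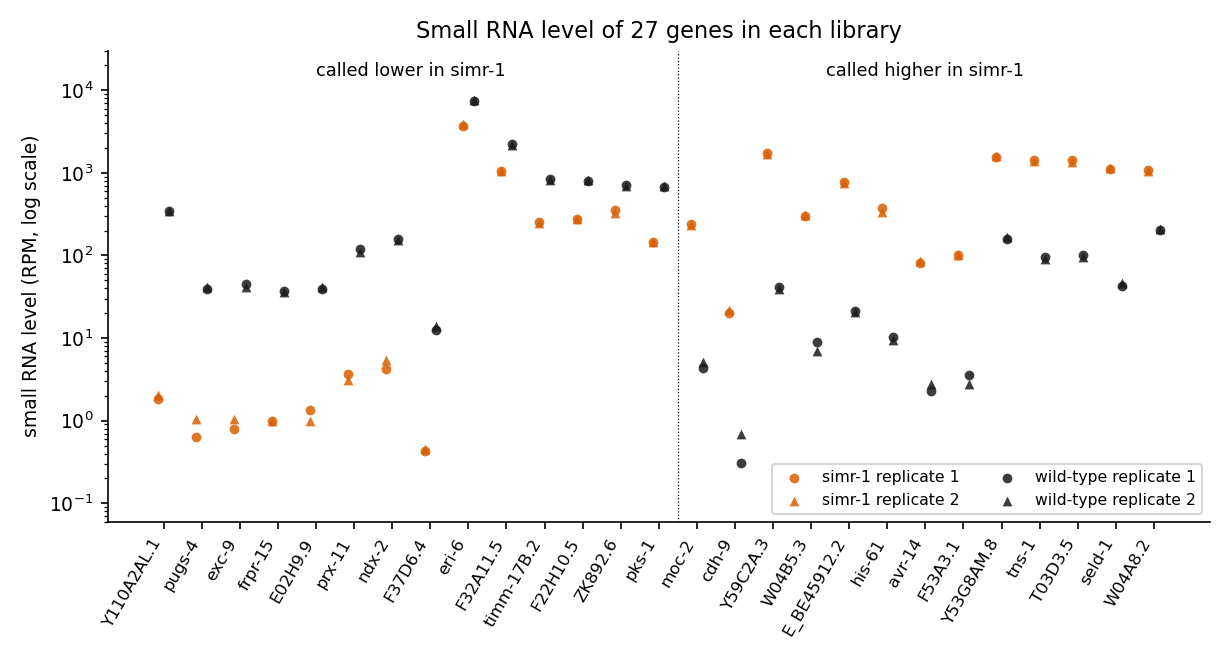
Small RNA level in each library (RPM, log scale) of the 27 genes named for the largest falls and rises and for the highest levels. Each gene has its 2 *simr-1* libraries on the left and its 2 wild-type libraries on the right. Replicates nearly coincide. The 27 genes were chosen among genes at which the genotypes do not overlap, so that gap follows from the choice.

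The depleted genes lay on every nuclear chromosome, with the largest share on the X. On that chromosome, 208 of 470 genes at 10 RPM or more fell (44.3%), against 648 of 6477 (10.0%) on chromosomes I to V, where the share per chromosome lay between 7.36% on III and 13.4% on V. The median log2 fold change of these X-linked genes was -0.81, with quartiles of -1.74 and 0.03, and that of the others 0.07. Genes that reach 10 RPM only in wild-type pass this limit through the genotype where they are high. Of all 1987 tested X-linked genes 208 were called lower, with a median log2 fold change of -0.27. On I to V the calls ran from 113 of 2732 genes on IV to 153 of 2645 on II. The medians there lay between -0.06 on V and 0.04 on III. Summed over the X, small RNAs came to 35606 and 33803 RPM in *simr-1*, against 47439 and 47165 RPM in wild-type. The libraries did not overlap, though 2 against 2 libraries cannot go below p = 0.33 in an exact two-sided permutation test. X-linked genes carry fewer small RNAs to begin with, with a median of 26.2 RPM in wild-type against 41.6 RPM on I to V. The excess was present at each level. At a wild-type level of 10 to 25 RPM, 36.5% of X-linked genes fell, against 14.0% on I to V. At 25 to 100 RPM these shares were 58.9% on the X and 9.15% on I to V, and at 100 RPM or more they were 46.9% on the X and 8.75% on I to V. Among protein-coding genes alone 52.8% fell on the X and 9.06% on I to V, and among genes that overlap no other gene 47.5% fell on the X and 11% on I to V. Enriched genes made up 5.96% of the X-linked genes and 3.37% of those on I to V. Genes are not independent replicates, and no test of the chromosomes against each other was made.

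Several X-linked genes with known roles were among the depleted ones. *xol-1* (X, 8041327 to 8044409), the switch gene for sex determination and dosage compensation, had 9.90 and 8.41 RPM in *simr-1*, against 110 and 106 RPM in wild-type (log2 fold change -3.64 ± 0.08, SE; edgeR adjusted p = 1.17e-14). *hpl-1*, which encodes a heterochromatin protein 1 homolog, had 6.34 and 7.12 RPM in *simr-1*, against 27.4 and 27.7 RPM in wild-type. *meg-4*, which encodes a disordered P granule protein, had 21.7 and 22.3 RPM in *simr-1*, against 61.8 and 62.0 RPM in wild-type. At all 3 genes the replicates differed little and the genotypes were well apart. *nhr-1*, a nuclear hormone receptor gene, fell by 2.12 on the log2 scale, and *rpl-11.2*, which encodes a protein of the large ribosomal subunit, by 1.74. *rpl-11.2* was the only depleted gene among 78 tested ribosomal protein genes.

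**Figure D3:**
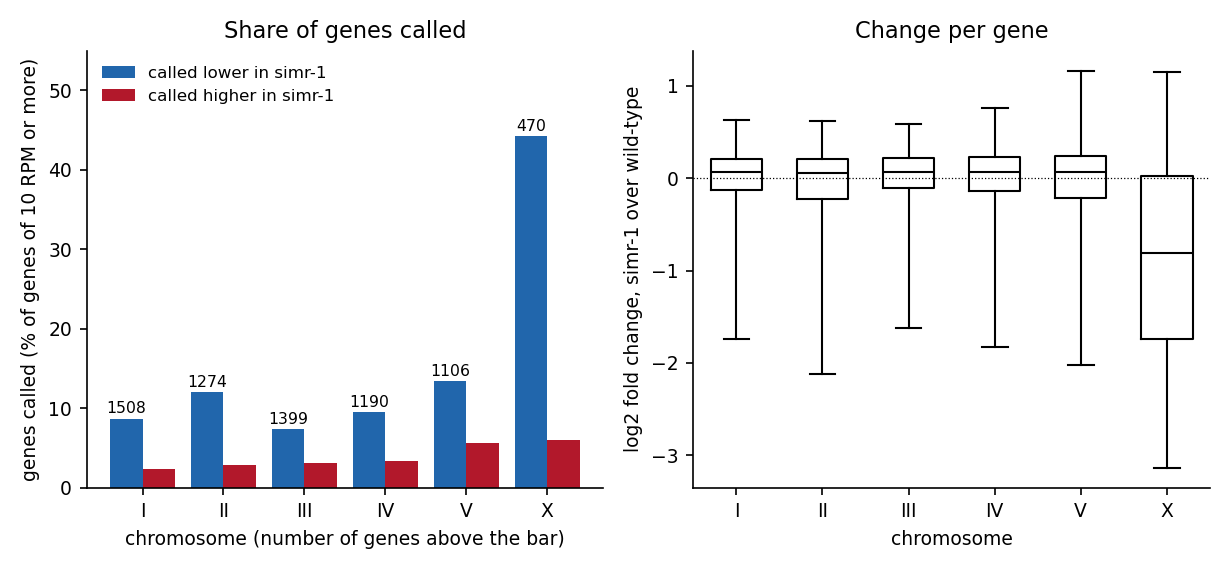
Left, share of the genes of 10 RPM or more on each chromosome that were called lower or higher in *simr-1* (%), with the number of genes above the bars. Right, log2 fold change of *simr-1* over wild-type of the same genes as boxes from the first to the third quartile with the median as a line. On the X 44.3% of 470 genes fell and the median is -0.81, while the other chromosomes have 7.36% to 13.4% and medians near 0.

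By gene class, pseudogenes had a larger share of depleted members than protein-coding genes, with no test of the classes against each other. Of 339 pseudogenes at 10 RPM or more, 107 fell (31.6%) and 12 rose, against 710 lower (11.4%) and 188 higher of 6228 protein-coding genes. Of 29 genes whose product is named as a transposase, reverse transcriptase or integrase, 9 fell and 4 rose. Over all genes at 10 RPM or more, 12.3% fell and 3.53% rose. No ribosomal RNA gene was called among 21.

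Members of large gene families were counted beside the 5.64% of all tested genes that fell and the 1.62% that rose. Of the 6965 genes at 10 RPM or more, 12.3% fell and 3.53% rose. Many members of these families lay below the 10 RPM that a call requires, and 39 of 118 tested F-box B and C genes, 68 of 154 F-box A genes, 42 of 78 MATH domain genes, 20 of 192 chemoreceptors, 9 of 87 C-type lectins and 28 of 152 nuclear hormone receptors reached it. F-box proteins pick substrates for ubiquitin ligases, and in the B and C families 27 of 118 tested genes fell and 0 rose, with a median log2 fold change of -1.91 beside -0.01 over all genes. Summed over these families, small RNAs came to 2466 and 2470 RPM in *simr-1*, against 4268 and 4105 RPM in wild-type. Among the largest falls, *fbxb-98* (II, 1862634 to 1863782) had 1.5 and 1.51 RPM in *simr-1*, against 14.5 and 14.0 RPM in wild-type. The nearby *fbxb-95* fell by 3.16 on the log2 scale. Of the F-box A family 26 of 154 fell and 7 rose, with a median of -0.86, and its sum was 5716 and 5630 RPM in *simr-1*, against 5714 and 5713 RPM in wild-type. The family total thus hardly differed although its members moved in both directions. *fbxa-3* (-3.21) and *fbxa-60* (-3.14) had the largest falls in that family. MATH domain genes had 8 lower and 2 higher of 78, led by *math-31* (-2.26) and *math-44* (-2.07).

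Chemoreceptors, the seven-transmembrane receptors of sensory neurons, had 14 lower and 0 higher of 192 tested genes and a median log2 fold change of -1.19. Their sum was 519 and 499 RPM in *simr-1*, against 1100 and 1075 RPM in wild-type. *sra-35* (II, 4524634 to 4527900) kept 5.34 and 4.92 RPM in *simr-1*, against 104 and 97 RPM in wild-type. The pseudogene *srh-9* had 0.36 and 1.06 RPM in *simr-1*, against 17.8 and 15.5 RPM in wild-type. Among C-type lectins, which bind sugars and include many immune effectors, 5 of 87 fell (5.75%), though only 9 of the 87 reached 10 RPM. The falls were led by the pseudogene *clec-237* (-4.44) and by *clec-238* (-4.33). Of the pals genes, a family that regulates the response to intracellular pathogens, 3 of 15 fell, with *pals-25* the largest (-2.57). Nuclear hormone receptors had 9 lower (5.92%) and 1 higher of 152, of which 28 reached 10 RPM, led by *nhr-146* (-3.46). Of 67 tested long intergenic noncoding RNAs, 8 fell and 1 rose, and *linc-44* (II, 5781921 to 5782113) had 9.75 and 10.2 RPM in *simr-1*, against 92.1 and 81.2 RPM in wild-type. In smaller numbers, 2 of 73 cuticle collagens fell, *col-60* (-1.64) and *col-154* (-1.09, named after its values were seen), and *col-111*, which overlaps *psr-1*, rose by 1.21, *skr-10* fell by 2.16 and *skr-3* rose by 1.23 among 17 Skp1-related genes, and the pseudogene *cyp-31A1* fell by 1.16 among 37 cytochrome P450 genes.

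Of 95 tested genes of the small RNA machinery itself, on 9 lists, 5 fell (5.26%) and 0 rose, beside 5.64% and 1.62% over all tested genes. Most of them reached the 10 RPM that a call requires, and of all genes at that level 12.3% fell and 3.53% rose. None of 12 WAGO-clade Argonautes, 11 other Argonautes, 11 Mutator complex genes, 6 RNA-dependent RNA polymerases and cofactors or 13 piRNA biogenesis genes was called in either direction. Of 9 Dicer and ERI genes only *eri-6* was called. Of 7 accessory factors of RNA interference 2 fell, and they were *simr-1* itself and *rde-11*, which encodes a RING-type zinc finger protein that promotes siRNA amplification. *rde-11* had 144 and 145 RPM in *simr-1*, against 293 and 297 RPM in wild-type (log2 fold change -1.11 ± 0.04, SE). *hpl-1* was the only one called of 11 nuclear RNAi and heterochromatin genes, and *meg-4* of 16 P and Z granule genes. ERGO-1 binds 26G-RNAs that set off 22G-RNAs at duplicated genes, and 3 of 24 tested targets fell, with a median log2 fold change of -0.07. Their sum had the other sign, with 7140 and 7427 RPM in *simr-1*, against 7089 and 7040 RPM in wild-type, and it turned round when reads were scaled to those counted on genes. The median was 0.009 when scaled to mapped reads, so neither gives a direction. The genes that fell were F39F10.4, with 21.7 and 23.1 RPM in *simr-1*, against 103 and 99.6 RPM in wild-type, F55C9.3 (-1.34), and F55C9.5 (-1.25), which was named after its values were seen.

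Genes used as reporters of single siRNA pathways had log2 fold changes of either sign. *xol-1* had the only called change among 7. *bath-45* had 2034 and 1950 RPM in *simr-1*, against 2597 and 2500 RPM in wild-type (-0.44 ± 0.03, SE), below the 2-fold limit. Y47H10A.5, a target of RDE-1, had 1604 and 1639 RPM in *simr-1*, against 1361 and 1330 RPM in wild-type (0.19 ± 0.03, SE). Neither gene overlapped between genotypes, so these are small differences that exceeded the spread of replicates. *hpo-40*, whose product is a Tudor domain relative of SIMR-1, had a log2 fold change of -0.35 ± 0.05 (SE). *unc-119*, the marker gene of strain construction, had 3.99 and 4.24 RPM in *simr-1*, against 5.56 and 5.86 RPM in wild-type, at edgeR adjusted p = 0.0454, and it missed the threshold in 7 of the alternatives.

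None of 33 proteasome genes was called, and all 33 had both *simr-1* libraries above both wild-type libraries in RPM. Their median log2 fold change was 0.24, and 0.33 when scaled to mapped reads as RPM is. Over all genes at 10 RPM or more these medians were 0.05 and 0.14, and no share of all genes stands beside the count of 33. For 23 tested oocyte and embryo genes the median was 0.25 with none called. None of 22 meiosis genes was called (median -0.02). None of 31 tested major sperm protein genes reached the 10 RPM that a call requires, and together they held 23.8 and 25.7 RPM in *simr-1*, against 21.2 and 25.9 RPM in wild-type in all. Vitellogenins, the yolk proteins made in the intestine, went the other way. *vit-4* had 5.87 and 5.87 RPM in *simr-1*, against 13 and 15.2 RPM in wild-type, and *vit-3* had 6.66 and 6.10 RPM in *simr-1*, against 13.6 and 14.0 RPM in wild-type. These 2 of 6 fell, and all 6 had lower levels in both *simr-1* libraries, with a median log2 fold change of -0.90. Of the 6, 5 lie on the X, and *vit-3* and *vit-4* each overlap another gene. Their mRNA sums were 35091, 33063 and 33309 CPM in *simr-1*, against 77207, 52063 and 51915 CPM in wild-type, where the first wild-type library stood apart. The intestine markers, which hold no vitellogenin, also had lower mRNA sums in all 3 *simr-1* libraries than in any wild-type library. The part of yolk mRNA or intestine in the small RNA levels was not tested.

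The enriched genes gained small RNAs from a low start. *moc-2* (V, 6502369 to 6504181), a gene of molybdenum cofactor synthesis whose exons overlap W01A11.1, had 241 and 234 RPM in *simr-1*, against 4.33 and 5.08 RPM in wild-type (log2 fold change 5.56 ± 0.08, SE; edgeR adjusted p = 9.05e-17). The cadherin gene *cdh-9* (X, 16595238 to 16602238) had 20.4 and 21.8 RPM in *simr-1*, against 0.31 and 0.69 RPM in wild-type. Y59C2A.3 (II, 2215476 to 2219921) had 1716 and 1678 RPM in *simr-1*, against 42.0 and 39.1 RPM in wild-type (5.30 ± 0.04, SE). At these genes the wild-type level was a few percent of the *simr-1* level or less. The galectin gene W04B5.3 had 297 and 306 RPM in *simr-1*, against 8.96 and 7.07 RPM in wild-type. *dyf-17* (V, 19127530 to 19130938), a gene of ciliated sensory neurons, had 499 and 466 RPM in *simr-1*, against 15.9 and 16 RPM in wild-type. E_BE45912.2, *avr-14*, F53A3.1 and *gst-43* had log2 fold changes between 4.72 and 5.1. *avr-14* encodes a glutamate-gated chloride channel subunit and *gst-43* a maleylacetoacetate isomerase, and the first 3 of these overlap another gene.

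The 6 enriched genes with the most small RNAs were led by Y59C2A.3. *tns-1* (I, 5583407 to 5607529), the tensin gene, had 1423 and 1395 RPM in *simr-1*, against 94.9 and 89.4 RPM in wild-type. *seld-1* (IV, 13506079 to 13509225), a selenophosphate synthetase gene, had 1122 and 1145 RPM in *simr-1*, against 42.8 and 46.2 RPM in wild-type. T03D3.5 had 1427 and 1345 RPM in *simr-1*, against 103 and 96.5 RPM in wild-type. These genes gained more than 10-fold. Y53G8AM.8 and W04A8.2 rose by 3.20 and 2.28 on the log2 scale. *tns-1* and *seld-1* overlap another gene, as did 33.3% of all enriched genes, 17.9% of the depleted ones and 25.9% of the genes at 10 RPM or more.

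Of the 36 gene lists described here, core histones had the most enriched members. The core histones H2A, H2B, H3 and H4 are each encoded by many nearly identical copies in clusters. Of 75 core histone genes 29 rose and 1 fell, with a median log2 fold change of 0.80. The classes differed. Every one of the 16 canonical H2A copies rose, with log2 fold changes between 2.30 and 5.08, and together they had 1216 and 1180 RPM in *simr-1*, against 101 and 112 RPM in wild-type. For H3, 7 of 15 canonical copies rose, with a class sum of 363 and 355 RPM in *simr-1*, against 133 and 127 RPM in wild-type. For H2B, 2 of 16 rose, with a median of -0.31, and for H4, 3 of 16 rose, with a median of -0.14. The gene that fell was the H4 gene *his-37*, by 1.02 on the log2 scale. None of the 3 H2A variants (*htz-1*, *his-35* and *htas-1*) or the 7 H3 variants was called. Of the H3 variants, 5 had both *simr-1* libraries above both wild-type libraries. *his-69* (log2 fold change 2.18, edgeR adjusted p = 0.0137) and *his-70* (1.38, edgeR adjusted p = 0.0128) passed the test and the 2-fold limit but not 10 RPM, with 2.06 and 1.14 RPM for *his-69* in *simr-1*, against 0.309 and 0.345 RPM in wild-type. *his-37* and the variants were named after their values were seen. *htz-1*, the H2A.Z gene, had 27.6 and 29.1 RPM in *simr-1*, against 23.3 and 22.9 RPM in wild-type, and *his-35* had 79.9 and 76.9 RPM in *simr-1*, against 70.3 and 69.6 RPM in wild-type.

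Reads of 1 histone copy can be assigned to another, and the start of the coding sequence shows how alike the copies are. The first 30 coding bases in RefSeq are given for the copies with the largest rises, for a copy of the chromosome II cluster and for variants that were not called. Capitals mark the bases that differ from *his-61*.
his-61: atgtctggacgtggaaagggaggcaaagcc
his-21: atgtctggacgCggaaagggaggcaaagcc
his-16: atgtctggacgtggaaagggaggcaaagcc
his-35: atgtcCggacgtggaaagggaggAaaagcT
htz-1: atgGctggaGgAAAaGGAAAGgCcGGaAAG
*his-16* had 0 differences from *his-61*, *his-21* had 1, *his-35* had 3 and *htz-1* had 17. Of the runs of 22 coding bases, the length of a 22G-RNA, a median of 100% over the 16 canonical H2A copies occurred in at least 1 other histone copy as well. The level of a single H2A copy is therefore uncertain, while the class sum is not divided in this way. *his-61* (IV, 7485733 to 7486254) shared 66.9% of its runs and had 373 and 334 RPM in *simr-1*, against 10.2 and 9.48 RPM in wild-type (5.08 ± 0.08, SE). *his-21* (V, 8891883 to 8892266) had 62.3 and 61.9 RPM in *simr-1*, against 2.16 and 4.14 RPM in wild-type. The variants *his-35* and *htz-1* shared 20.1% and 0% of their runs.

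**Figure D4:**
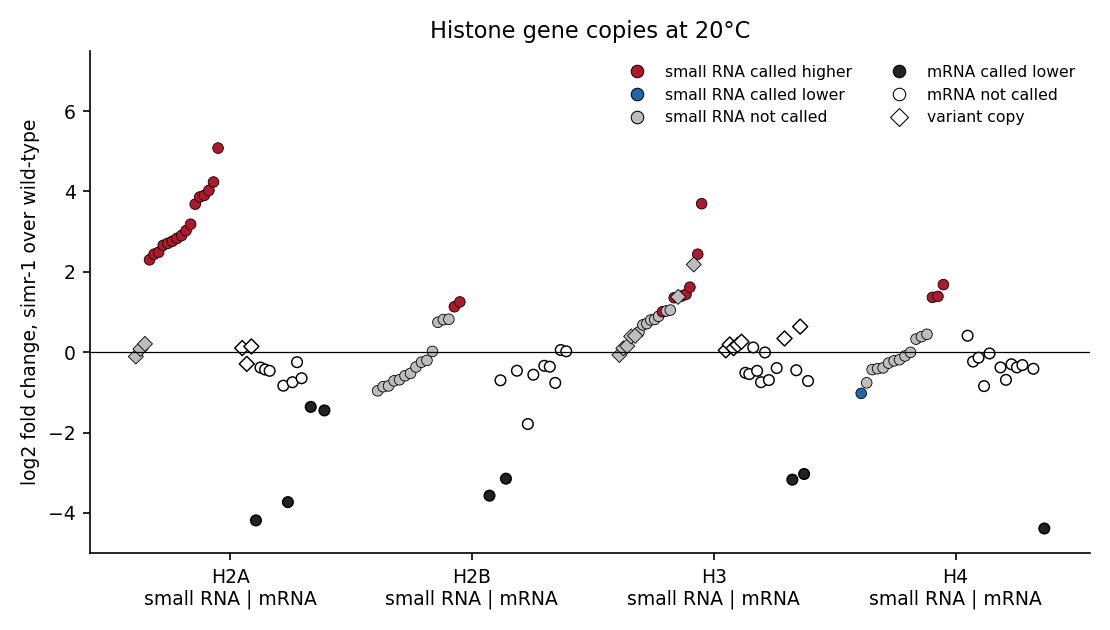
Log2 fold change of *simr-1* over wild-type for each histone gene copy at 20°C, with small RNA on the left and mRNA on the right of each class, and variants marked apart. All 16 canonical H2A copies lie between 2.30 and 5.08 for small RNA. No copy rose for mRNA and 9 fell.

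A part of the enriched genes rested on 1 library. Of the 246 enriched genes 15 were tRNA genes and 16 overlapped a tRNA gene. These 31 summed to 2036 RPM in the first *simr-1* library and 714 RPM in the second, against 572 and 525 RPM in wild-type. The first *simr-1* library was thus high and the second lay near wild-type. Without the first *simr-1* library 2 tRNA genes or genes overlapping one were called higher, and without the second 93 were, while DESeq2 called 2 on the 4 libraries. Of the 68 genes at which the *simr-1* replicates differed at least 2-fold, 65 were of this kind and all 68 were higher in the first. Without tRNA genes and genes that overlap one, an alternative chosen after the data were seen, 215 genes rose and 855 fell.

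The mRNA of the same genes was measured in 3 *simr-1* and 3 wild-type libraries at 20°C. Of 14656 genes tested, 279 rose (1.90%) and 176 fell (1.20%) by edgeR. Of the 700 depleted genes with mRNA data, 27 had higher mRNA (3.86%) and 12 lower mRNA (1.71%), and their median mRNA log2 fold change was 0.07. Of the 182 enriched genes with mRNA data, 34 had lower mRNA (18.7%) and 9 higher mRNA (4.95%), with a median of -0.24. Among 10607 genes with no called change in small RNAs, 0.92% had higher and 0.88% lower mRNA. Most depleted genes thus had no called change in mRNA, and the share with lower mRNA stood highest among the enriched genes. X-linked genes had a median mRNA log2 fold change of -0.09, beside -0.03 on I to V.

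Some depleted genes had much more mRNA in *simr-1*. *timm-17B.2* had 740, 659 and 761 CPM in *simr-1*, against 10.1, 12 and 12.5 CPM in wild-type (log2 fold change 5.99 ± 0.09, SE; edgeR adjusted p = 1.45e-12). *fbxb-97* had 20.0, 19.3 and 21.8 CPM in *simr-1*, against 2.01, 2.61 and 1.5 CPM in wild-type, and its small RNAs were 132 and 145 RPM in *simr-1*, against 660 and 650 RPM in wild-type. F28F8.7, an ELM2 domain gene that overlaps B0391.10, had 50.5, 52.7 and 47.4 CPM in *simr-1*, against 10, 8.47 and 9.98 CPM in wild-type. The 3 *simr-1* libraries lay well above the 3 wild-type libraries at each. H39E20.1, the transposase gene, rose by 2.88 on the log2 scale in mRNA, and *xol-1* and F22H10.5 by 1.07 and 1.10. EGAP2.2 had 15 mRNA counts over the 3 *simr-1* libraries and 0 over the wild-type libraries, at least 4.92-fold higher when 3 counts over the group are taken as the floor. Y110A2AL.1, with the deepest loss of small RNAs, had 0 counts in *simr-1* and 12 in wild-type in its 3 libraries each, at least 4.07-fold lower by the same floor. *bath-45*, whose small RNAs passed no 2-fold limit, fell by 2.17 in mRNA, with 0.395, 0.512 and 0.295 CPM in *simr-1*, against 1.65, 1.70 and 2.25 CPM in wild-type.

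At enriched genes the largest mRNA falls were at *fbxa-193* and F07B7.2. The pseudogene *fbxa-193* (V, 17653482 to 17655281) had 0.33, 0.44 and 0.24 CPM in *simr-1*, against 11.8, 14.6 and 15.0 CPM in wild-type, and 669 and 653 RPM of small RNA in *simr-1*, against 141 and 147 RPM in wild-type. F07B7.2 (V, 8870259 to 8872003), annotated as a retrotransposon protein, fell by 5.11 on the log2 scale in mRNA while its small RNAs rose by 1.35. Of the histones with more small RNAs, *his-26*, *his-43* and *his-16*, which lie within 10 kb of each other on chromosome II, fell by 4.39, 4.19 and 3.73 in mRNA. In the same stretch lie *his-11* and *his-44*, the 2 H2B copies called lower in mRNA, named after their values were seen. Their mRNA log2 fold changes were -3.15 and -3.57, but their small RNAs did not rise (-0.68 and -0.86). These mRNA libraries were made from poly(A) RNA, and canonical histone mRNAs mostly lack poly(A). Y59C2A.3 had 4.48, 4.90 and 5.13 CPM in *simr-1*, against 40.6, 35.4 and 37.8 CPM in wild-type. *dyf-17*, T03D3.5, W04A8.2, E_BE45912.2 and *seld-1* fell by between 1.84 and 3.57 in mRNA. Against this direction, *avr-14* had 7.77, 8.71 and 8.13 CPM in *simr-1*, against 1.65, 2.61 and 0.75 CPM in wild-type, and *moc-2* and *cdh-9* had no called change in mRNA.

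**Figure D5:**
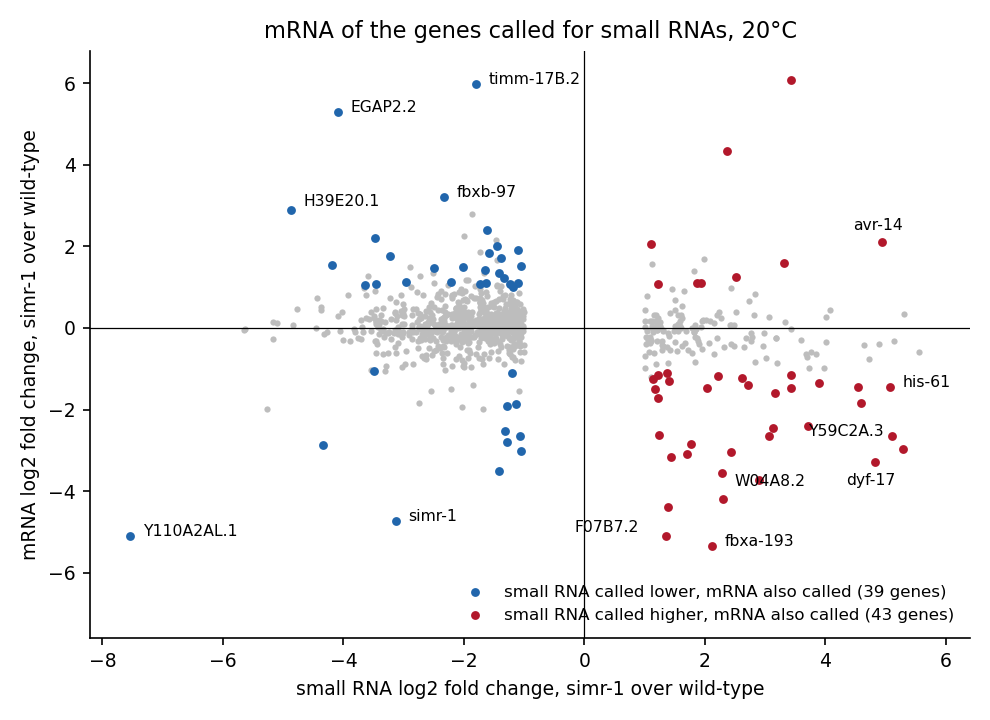
Small RNA log2 fold change (x axis) against mRNA log2 fold change (y axis), both *simr-1* over wild-type at 20°C, for the genes called for small RNAs that have mRNA data. Coloured points are also called for mRNA. Among depleted genes 27 have higher and 12 lower mRNA, and among enriched genes 9 have higher and 34 lower mRNA. The points of EGAP2.2 and Y110A2AL.1 rest on 1 genotype with 0 counts and their height is no estimate.

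Single small RNA libraries from 20°C adults gave a second measurement of the same genes, with 1 library a genotype and so no test. In the single *simr-1* library 655 of the 856 depleted genes (76.5%) were at least 2-fold below the single wild-type library. Of 6953 genes at 10 RPM or more in either of these libraries, 12.5% were. Backgrounds given for the other single libraries are taken in the same way. The single wild-type library held 73337117 mapped reads and the single *simr-1* library 3519773. The median log2 ratio of the depleted genes was -1.61. In the single *simr-1*; *hpo-40* library 79.9% of them were at least 2-fold lower (background 14.8%), in *hpo-40* 8.41% (2.1%), in *mut-16*, which lacks the scaffold of the Mutator complex, 93.0% (27%), and in *wago-1* 40.1% (11%). Most depleted genes were thus low in the other *simr-1* libraries and in *mut-16*, and few were in *hpo-40*. These ratios share 1 wild-type library. Of the X-linked genes of 10 RPM or more, 28.9% were at least 2-fold lower in the single *simr-1* library, against 10.3% on I to V, and 60.9% in the *mut-16* library, against 24.7% on I to V.

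The enriched genes were measured in the same single libraries. In the single *simr-1* library 86 of 246 (35%) were at least 2-fold higher than in wild-type (background 1.78%), with a median log2 ratio of 0.30. The share was 41.1% in *simr-1*; *hpo-40* (background 2.71%), 28.9% in *hpo-40* (2.87%) and 20.7% in *wago-1* (7.68%). *his-61* had 494 RPM in that library, against 13.1 RPM in the single wild-type library, and *dyf-17* had 254 RPM in *simr-1*, against 16.4 RPM in wild-type. Y59C2A.3 had 35.2 RPM in *simr-1*, against 34.6 RPM in wild-type, and *fbxa-193* had 89.5 RPM in *simr-1*, against 217 RPM in wild-type. The last 2 genes, which gained small RNAs in both replicated libraries, did not do so in the single one. Of the 10 genes with the largest rises 6 were at least 2-fold higher in the single *simr-1* library and 3 were lower than in wild-type, and of the 6 enriched genes with the highest levels 1 (Y53G8AM.8) was at least 2-fold higher and 3 were lower. F53A3.1, *gst-43* and W04A8.2 had single-library log2 ratios of -2.26, -1.08 and -1.88. In the single *mut-16* library 2 of the 246 were at least 2-fold higher (background 13.8%), and 141 (57.3%) at least 2-fold lower, with a median log2 ratio of -1.31.

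After 1 generation at 25°C the same comparison was made in 2 libraries of each genotype. Of the 856 depleted genes 849 could be tested, and 595 fell again while 0 rose, where 9.18% of all genes tested at 25°C fell. Their median log2 fold change was -2.62. Of the 246 enriched genes 120 rose again and 14 fell, where 17.5% of all genes rose. The scaling of these libraries matters, since at 25°C the median gene of 10 RPM or more stood at 0.73 with TMM and at 1.21 when scaled to mapped reads. With the latter scaling 551 of the depleted genes fell and 1 rose, and 156 of the enriched genes rose and 4 fell. The genotype difference at 25°C was larger in the falling direction than at 20°C for 338 of the 856 depleted genes and smaller or opposite for 26, in a test of the interaction where 15.3% of all genes were called lower and 9.34% higher. With scaling to mapped reads these counts were 169 and 80. *timm-17B.2* had 147 and 132 RPM in *simr-1*, against 434 and 443 RPM in wild-type at 25°C, and Y59C2A.3 had 2354 and 2413 RPM in *simr-1*, against 17.6 and 22 RPM in wild-type. Both kept the direction they had at 20°C.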

How the data were processed

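Small RNA reads had been clipped, quality filtered and mapped by the authors to the WS258 genome with Bowtie2, then counted on genes without strand with featureCounts 1.5.1. Each read was given by the authors to its best-overlapping gene and split in case of a tie, so the deposited values are expected counts, and they were rounded for the tests. Annotated miRNAs and piRNAs were excluded by the authors. The deposited mRNA values are estimated counts by gene name. RPM used the study's totals of mapped reads, and CPM was TMM-normalised.

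Differences were tested with edgeR 4.0.16 (quasi-likelihood, TMM, Benjamini-Hochberg adjustment, R 4.3.3) on genes that reached 10 counts over all libraries of a comparison, and 0.5 RPM was added for ratios of single libraries. Lists are described by counts and medians, with no set test. Counts of list members with both *simr-1* libraries above or below both wild-type libraries have no share over all genes beside them. Named genes are the 10 largest falls and rises, the 6 highest levels in each direction, the 2 largest called changes per list, chosen pathway genes, the 5 largest opposite mRNA changes in each direction and the 3 largest opposite changes at 25°C. The largest falls and rises and highest levels were taken from called genes with both *simr-1* libraries on the same side of both wild-type libraries. Members and lists were chosen with earlier results of these data known. Gene positions were read from the deposited tables (WS258). Among the listed genes, cde-1, tofu-3, C40A11.10 and opt-2 had no match. Counts per library limit genes near 10 RPM. Alternatives covered scaling, test, filters, limits, depth, a replicate block and each library left out (DESeq2 1.42.0 as the other test). The remaining single-library strains and generations 2 to 10 of the series were not used here.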

Additional observations from a re-analysis of the deposited data

Results flagged for a closer look

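The tRNA genes Y37B11A.t2, F17H10.t1 and C30E1.t1 had genotype differences that went in opposite directions at 20°C and after 1 generation at 25°C. They are the largest of 7 genes that met the rule for naming, all 7 higher in simr-1 at 20°C and lower at 25°C. That rule also asked for both simr-1 libraries on the same side of both wild-type libraries at 20°C. Of all 246 enriched genes 14 were called lower at 25°C, and 4 when scaled to mapped reads. The difference between the genotype effects (25°C minus 20°C, log2) was -3.03 for Y37B11A.t2, -3.0 for F17H10.t1 and -2.96 for C30E1.t1, in edgeR's interaction test at adjusted p between 2.62e-06 and 7.31e-06. At 20°C Y37B11A.t2 had 87.4 and 35.2 RPM in simr-1, against 27 and 30.6 RPM in wild-type, so the first simr-1 library alone was far above wild-type. At 25°C it had 29.1 and 37 RPM in simr-1, against 115 and 66.3 RPM in wild-type. The rises of these genes at 20°C rest on the first simr-1 library, as do those of most tRNA genes.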

How the results depend on the processing

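The counts of depleted and enriched genes moved most with the limits of the call. With no minimum RPM 2046 genes fell and 444 rose, with no fold limit 1713 fell and 1805 rose, and at a minimum of 25 RPM 544 fell. Under the other scalings, tests, filters and depths, between 818 and 1009 genes fell and between 214 and 275 rose. Leaving out 1 small RNA library gave between 855 and 872 depleted and between 210 and 312 enriched genes. Without genes that overlap another gene 703 fell and 164 rose. The X-linked depleted genes numbered between 198 and 209 under the normalisations and tests and without single libraries, 245 with RPM per reads counted on genes, 174 without overlapping genes, 307 with no fold limit, 450 with no minimum RPM and 134 at 25 RPM. The enriched tRNA-linked genes numbered 2 with DESeq2 or after thinning, 2 without the first simr-1 library and 93 without the second, 50 and 47 without either wild-type library, 16 with edgeR's own filter and 52 with none.

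DESeq2 called 169 mRNAs higher in place of 279. Leaving out 1 mRNA library gave between 186 and 257 higher and between 137 and 187 lower mRNAs, and between 21 and 28 depleted genes with higher and between 31 and 36 enriched genes with lower mRNA when either kind of library was left out. Scaled to mapped reads, the interaction with 25°C called 169 depleted genes below 0 and 80 above 0, and 60 enriched genes below 0 and 29 above 0. Some differences of list sums (simr-1 minus wild-type, RPM) turned round. Per counted reads they were -35.1 for the Mutator complex, -113 for ERGO-1 targets, -73.2 for linker histones, -143 for meiosis genes and -696 for long intergenic noncoding RNAs, against 144 per mapped reads for the last. Without overlapping genes they were 36.8 for Dicer and ERI, -24.7 for linker histones, -11.2 for meiosis genes and -87.4 for cuticle collagens. The cause was not tested. Of 624 values of named genes under the alternatives 613 kept their direction and side of the threshold, 11 lost the call and 0 turned round.

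With the replicate number as a block 858 genes fell and 251 rose. The numbers do not pair the libraries: deviations of same-numbered small RNA libraries correlated at 0.08 over 7296 genes, and those of mRNA at 0.10, 0.01 and 0.16. Each small RNA library matched its own number best, but with 2 libraries a genotype either both match or neither does, so this is no evidence of pairing. In mRNA numbers 1 and 3 matched best but number 2 did not, at most a hint from the data and not from the design. Near 10 RPM the wild-type libraries hold few reads per gene, so small changes there were not detectable.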

Other observations

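Small nucleolar RNA genes had 6 higher (10.9%) and 5 lower (9.09%) of 55 genes at 10 RPM or more. Other noncoding RNA genes had 23 higher (15.6%) and 18 lower (12.2%) of 147. Over all genes at that level 3.53% were higher and 12.3% lower. Genes of the mitochondrial genome had none called of 18. Small heat shock protein genes, which hold few small RNAs, summed to 5.38 and 4.13 RPM in simr-1, against 12.1 and 10.9 RPM in wild-type, and none of 7 was called.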
